A study of Mus musculus with 4 samples.

Results

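The 10 genes described here build and load major histocompatibility complex (MHC) class I molecules: the heavy chains H2-K1, H2-D1 and H2-T23, the light chain B2m, the peptide transporter subunits Tap1 and Tap2, the loading factor Tapbp, the immunoproteasome subunits Psmb8 and Psmb9, and the transactivator Nlrc5. They were chosen by name, as the rows of a count table of 54532 genes that carry these symbols, and not by their values. RNA-seq was performed on 4 libraries of wild-type mouse peritoneal macrophages. Cells received either DMSO or 10 µM CH223191, each without 4T1-CM (normal medium) or in 30% 4T1-CM, and each condition had 1 library. 4T1-CM is medium conditioned by 4T1 cells, a mouse mammary carcinoma line, and was mixed into RPMI complete medium, which served alone as the normal medium. CH223191 is an antagonist of the aryl hydrocarbon receptor (AHR), a ligand-activated transcription factor, and DMSO is its solvent, so every library contained the solvent or the compound. By the study's methods such macrophages came from young adult BALB/c mice, had been elicited into the peritoneum with thioglycollate, and received the inhibitor before the medium was changed. How many animals were pooled and how long these cultures lasted were not given in the sources used here. The comparisons ask how 4T1-CM and AHR inhibition each go with transcript levels in these cells, and whether the response to 4T1-CM differs when AHR is inhibited.

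MHC class I molecules display peptides from a cell's own proteins to CD8+ T cells. Peptides are cut by the proteasome, in which immunoproteasome subunits can replace the constitutive catalytic ones, carried into the endoplasmic reticulum by the TAP transporter, and loaded with the help of tapasin onto a heavy chain paired with β2-microglobulin. In many cells interferons raise most of these genes together, partly through NLRC5, which acts at a promoter module that class I genes share. Macrophages use the pathway both for their own proteins and to cross-present material that they have engulfed.

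All 10 genes reached at least 10 reads in every library, and 13715 genes of the table reached that number in at least 1. Library totals ran from 15535405 to 17557127 reads, and levels are given as CPM (reads scaled to a common library size) after scaling with TMM factors, which correct for differences in library composition. With 1 library per condition there was no replicate error. A log2 ratio between 2 libraries is therefore given with a 95% interval that covers counting error only, compares libraries and not conditions, and stands without a p-value; a 2-fold difference served as the size rule. All 7 macrophage markers examined (Adgre1, Cd68, Csf1r, Itgam, Lyz2, Mertk and Fcgr1) were detected, and their summed CPM, most of it Lyz2, was 14028 and 18261 for the normal medium libraries (DMSO first) but 37499 and 40034 for the 4T1-CM ones. Among other cell types, summed CPM reached 0.69 for 6 T cell markers, of which 5 including Cd3e had no read, 0.857 for 4 NK cell markers, with Ncr1 at 0, and 1.35 for 5 epithelial markers. The 4 B cell markers summed to 4.74 to 34.2 CPM and were higher in normal medium, nearly all of it from Ighm. Summed fibroblast markers (4 of 5 above 3 reads) were 57.3, 27.0, 145 and 123 CPM in normal medium with DMSO, normal medium with CH223191, 4T1-CM with DMSO and 4T1-CM with CH223191, an order used for all values below. Summed dendritic cell markers were 1.44, 1.01, 2.46 and 2.40 CPM, with Ccr7 at 0, 1, 24 and 13 reads. Neutrophil and mesothelial markers reached 0.503 and 0.755 CPM. The macrophage, B cell and fibroblast markers therefore moved with the medium. Among lists with low sums, the dendritic, epithelial and mesothelial markers also differed between the media. The part of any of these in the results was not tested.

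In bulk RNA, fewer cells of a type and less RNA per cell cannot be told apart. The mice and the reference genome also differ at this locus: BALB/c carries other MHC alleles than the C57BL/6 reference, and a further heavy chain gene, H2-L, that the reference lacks. Of all 50-base words in the transcripts of H2-K1, H2-D1 and H2-T23, 9.63%, 12.8% and 13.6% also occur in another gene, so the reads of these heavy chains may be split or misplaced and their levels are uncertain. The corresponding shares were 2.87% for Tapbp, under 1% for Tap1, Tap2 and Psmb8, and 0% for B2m, Psmb9 and Nlrc5.

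Levels per length, as RPKM (CPM divided by gene length in kilobases), spanned a wide range. The length is the one deposited with the counts and may differ from that of the transcript expressed here. Order and ratios between genes depend on it. B2m was the highest gene in every library, at 894, 1226, 1989 and 1691 RPKM, followed by H2-D1 at 528, 528, 539 and 528. Nlrc5 was the lowest, at 1.67, 1.45, 2.66 and 2.39 RPKM. Between these lay H2-K1, Tapbp and H2-T23, at 40.2 to 126 RPKM, and Psmb8, Tap2, Psmb9 and Tap1, at 5.59 to 23.2 RPKM. H2-K1 and Tapbp lay close to each other in every library, and H2-T23 was above both only with CH223191 in normal medium and below both in the other 3 libraries.

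**Figure D1:**
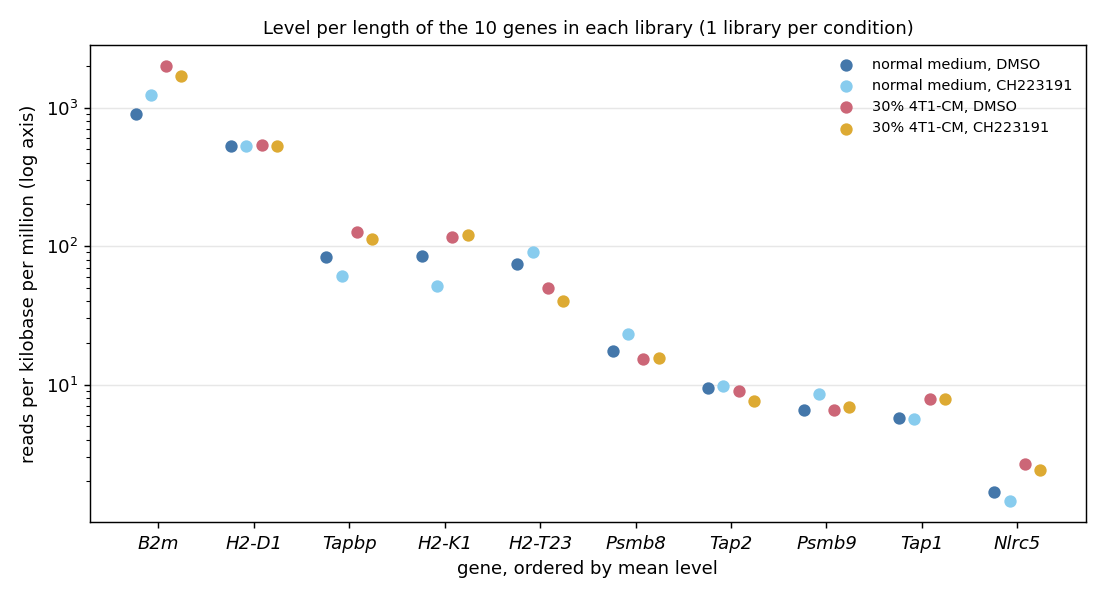
Level of each of the 10 genes in each of the 4 libraries, in RPKM on a log axis, with genes ordered by mean level and 1 point per library. B2m and H2-D1 lie at 528 or above in every library and Nlrc5 at 2.66 or below, while the points of H2-D1 nearly coincide and those of H2-T23 and H2-K1 spread apart.

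The heavy chain promoters are shown because H2-K1 and H2-D1, whose windows are closely related, differed in their response to the media. Windows run from 250 bases before to 50 bases after the annotated start on the reference genome (RefSeq, GRCm38.p6), which is a C57BL/6 sequence, and were found for 8 of the 10 genes. All sequences read 5′ to 3′ on the gene's strand, and capitals mark matches to the motifs named after them. H2-K1 on the minus strand at chr17:34000298-34000597, H2-D1 on the plus strand at chr17:35262844-35263143 and H2-T23 on the minus strand at chr17:36032652-36032951 read as follows.
H2-K1: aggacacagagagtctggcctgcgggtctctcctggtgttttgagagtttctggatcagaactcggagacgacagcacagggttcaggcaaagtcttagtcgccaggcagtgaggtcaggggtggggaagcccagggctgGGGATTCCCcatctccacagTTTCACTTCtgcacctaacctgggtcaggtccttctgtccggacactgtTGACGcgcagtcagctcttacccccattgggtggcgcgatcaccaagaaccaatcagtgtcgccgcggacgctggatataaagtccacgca
H2-D1: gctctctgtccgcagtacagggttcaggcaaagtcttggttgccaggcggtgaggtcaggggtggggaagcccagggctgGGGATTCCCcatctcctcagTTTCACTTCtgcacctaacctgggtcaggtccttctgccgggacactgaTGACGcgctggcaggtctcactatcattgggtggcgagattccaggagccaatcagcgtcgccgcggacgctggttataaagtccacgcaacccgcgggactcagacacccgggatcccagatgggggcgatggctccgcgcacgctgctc
H2-T23: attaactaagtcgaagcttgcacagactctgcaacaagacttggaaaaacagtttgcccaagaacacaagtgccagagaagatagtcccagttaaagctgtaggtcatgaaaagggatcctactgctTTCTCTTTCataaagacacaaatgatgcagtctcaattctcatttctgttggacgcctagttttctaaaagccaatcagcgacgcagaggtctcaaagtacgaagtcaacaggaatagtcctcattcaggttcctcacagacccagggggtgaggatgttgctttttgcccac

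The H2-K1 and H2-D1 windows were identical at 211 of 239 aligned bases (88.3%). Both held the kappa B site of class I genes, GGGATTCCC, which occurs in 0.353% of the 32851 windows in the RefSeq table, and the interferon-response form GAANNGAAA, here as its reverse complement, which occurs in 7.52%. This form was added to the search after the sequences had been read. The H2-T23 window held the interferon-response core GAAANNGAA, found in 8.56% of windows, also on the opposite strand, and no kappa B match. All motifs were searched on both strands, the interferon-response forms can overlap each other, and a match describes letters only. B2m and Tap1 are shown for the partner genes of the heavy chains.
B2m, plus strand, chr2:122147437-122147736: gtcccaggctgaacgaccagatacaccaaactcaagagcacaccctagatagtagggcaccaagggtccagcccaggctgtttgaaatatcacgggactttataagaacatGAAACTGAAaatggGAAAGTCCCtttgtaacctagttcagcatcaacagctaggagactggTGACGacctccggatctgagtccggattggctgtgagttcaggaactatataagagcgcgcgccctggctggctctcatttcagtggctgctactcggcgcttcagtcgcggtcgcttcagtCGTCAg
Tap1, plus strand, chr17:34187306-34187605: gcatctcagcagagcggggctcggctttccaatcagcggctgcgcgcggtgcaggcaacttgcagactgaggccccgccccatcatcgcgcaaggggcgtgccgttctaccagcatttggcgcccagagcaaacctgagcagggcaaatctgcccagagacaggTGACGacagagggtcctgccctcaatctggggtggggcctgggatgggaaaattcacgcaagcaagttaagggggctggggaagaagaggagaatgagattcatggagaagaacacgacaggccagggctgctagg

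The B2m window held the interferon-response core GAAANNGAA, and 5 bases beyond it a kappa B match, GGGANTTTC (1.11% of windows) on the opposite strand. TGACG, the core of the cyclic AMP response element TGACGTCA, occurred in the windows of H2-K1, H2-D1, B2m, Tap1 and Psmb9 and in 20.8% of all windows, while the whole element occurred in 1.79% of windows and in none of these 8. In the RefSeq annotation Tap1 and Psmb9 are transcribed away from each other from starts 226 bases apart, and 275 bases of the Tap1 window are also in the Psmb9 window, with 1 TGACG match that both share. Psmb8 held the gamma-activated site TTCNNNGAA, found in 8.30% of windows. The Tapbp window held no match, which says only that these letters are not in it.

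**Figure D2:**
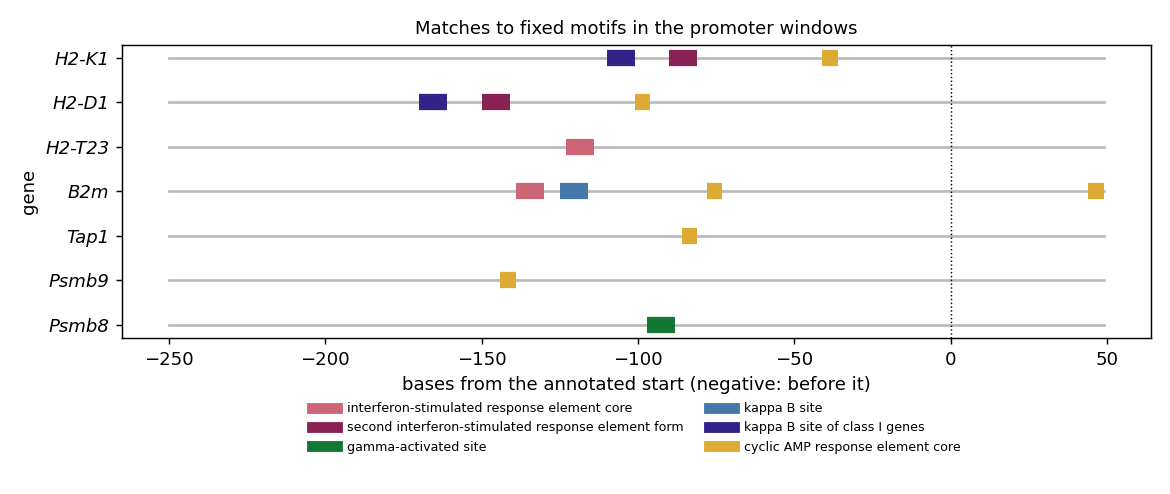
Position of motif matches in the promoter windows of 7 genes, with distance from the annotated start in bases on the horizontal axis (negative before the start) and 1 line per gene; colours name the motif. Matches in H2-K1 and H2-D1 stand in one order with nearly equal spacing, shifted against the start, and the kappa B and interferon-response matches of B2m lie side by side.

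The heavy chains did not move together with 4T1-CM. H2-K1 (ENSMUSG00000061232, chr17:33996017-34000333), a classical heavy chain, had 3540, 2121, 5326 and 5087 reads, or 222, 133, 304 and 313 CPM. The library of normal medium with CH223191 was the low one and the 4T1-CM libraries were alike. In 4T1-CM the level was 1.37-fold that of normal medium with DMSO (log2 ratio 0.45, 95% interval 0.39 to 0.52) and 2.35-fold with CH223191 (1.23, 1.16 to 1.31).

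H2-D1 (ENSMUSG00000073411, chr17:35262730-35267499), the other classical heavy chain measured here and the most abundant one, had 21694, 21661, 24328 and 22110 reads. These correspond to 1361, 1362, 1390 and 1361 CPM, and the 4 libraries could hardly be told apart. Its ratio of 4T1-CM to normal medium was 1.02 with DMSO (log2 0.03, 0.00 to 0.06) and 0.999 with CH223191. Within a library the level of H2-D1 per length was 6.20 times that of H2-K1 (95% interval 5.98 to 6.42) in normal medium with DMSO, 10.3 times with CH223191, and 4.62 and 4.4 times in the 4T1-CM libraries.

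H2-T23 (ENSMUSG00000067212, chr17:36029773-36032855) encodes a nonclassical heavy chain that displays signal peptides of other class I molecules to receptors of natural killer cells. It had 3402, 4182, 2519 and 1889 reads, or 213, 263, 144 and 116 CPM. Both 4T1-CM libraries lay below both libraries in normal medium. The level in 4T1-CM was 0.674-fold with DMSO (log2 −0.57, −0.64 to −0.49) and 0.442-fold with CH223191 (−1.18, −1.26 to −1.10). When the reads of all 24 class I heavy chain genes of the table were summed, of which 14 had a read, the log2 ratio was 0.09 (0.07 to 0.11) with DMSO and 0.06 (0.04 to 0.08) with CH223191. H2-D1 supplied most of that sum.

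Of 14 other class I and class I-like heavy chain genes, 5 reached 2-fold higher in 4T1-CM with DMSO, where 12.2% of all genes did, and 0 reached 2-fold lower, where 6.11% did. Of these 5, H2-M2 and H2-Q10 (5, 7, 12 and 7 reads) passed the filter only through 4T1-CM libraries, so the count says nothing about the list as a whole. With CH223191, 2 of 12 reached 2-fold higher, where 12.0% of all genes did, and 0 lower, where 7.86% did. The 12 leave out H2-M2 and H2-Q2, which under CH223191 had 1 and 0 reads in normal medium but 753 and 14 reads in 4T1-CM. The widest contrast was in H2-M2, a nonclassical heavy chain gene, with 4, 1, 1124 and 753 reads. Its level in 4T1-CM was 228-fold that of normal medium with DMSO (log2 7.83, 6.64 to 9.88), with a prior count of 0.5 added to the reads. With CH223191 the ratio against a single read was 737-fold without a prior count, with a counting interval of 132 to 29154. The folds are therefore not on one scale and were not compared. H2-Q7 had 48, 66, 177 and 165 reads and log2 ratios of 1.74 (1.28 to 2.24) and 1.28 (0.87 to 1.73). Mr1, which presents microbial metabolites of vitamin synthesis to unconventional T cells, had 290, 345, 929 and 934 reads and log2 ratios of 1.54 (1.35 to 1.74) and 1.40 (1.23 to 1.59). Fcgrt, the heavy chain of the neonatal Fc receptor, was lower, with log2 ratios of −0.82 (−0.97 to −0.67) and −0.35 (−0.49 to −0.20).

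**Figure D3:**
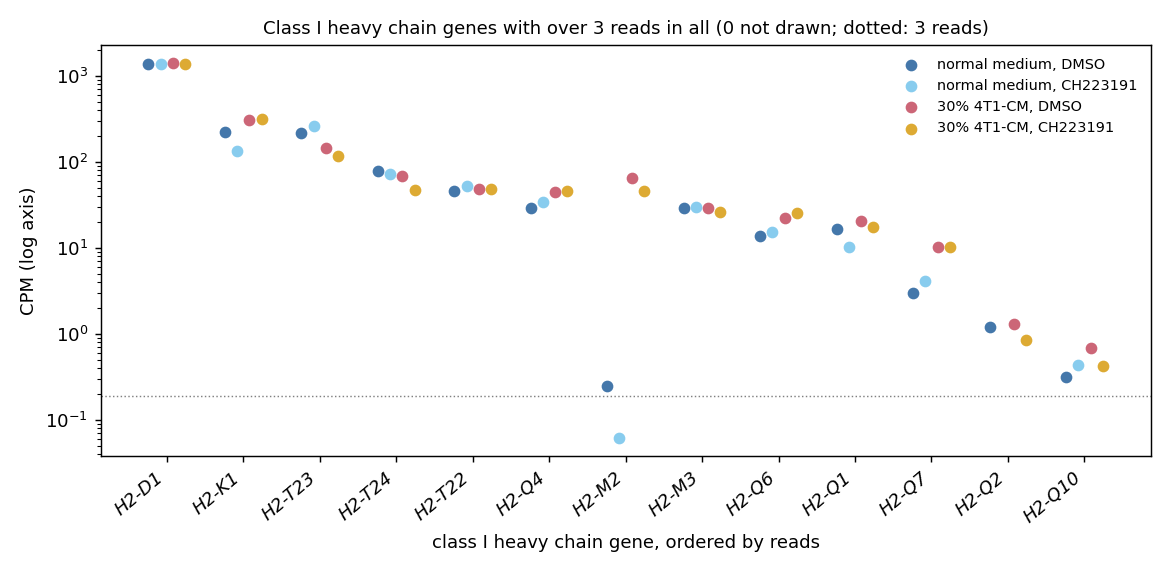
CPM on a log axis of the class I heavy chain genes with more than 3 reads in all, ordered by reads, with 1 point per library and the level of 3 reads as a dotted line. H2-M2 is the gene whose 4T1-CM libraries (64.2 and 46.4 CPM) are far above those in normal medium (0.251 and 0.0629 CPM), while the 4 points of H2-D1 coincide.

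B2m (ENSMUSG00000060802, chr2:122147686-122153083), the light chain that every class I heavy chain needs to reach the cell surface, had 12260, 16773, 29948 and 23629 reads. In CPM these were 769, 1055, 1711 and 1455, so both 4T1-CM libraries were above both libraries in normal medium, and the highest was 4T1-CM with DMSO. It was 2.22-fold higher in 4T1-CM with DMSO (log2 1.15, 1.12 to 1.18) and 1.38-fold with CH223191 (0.46, 0.44 to 0.49). Since H2-D1 stayed level, the ratio of B2m to H2-D1 per length was 1.69 (1.66 to 1.73), 2.32, 3.69 (3.63 to 3.75) and 3.20. Across all genes the log2 ratios moved with gene length, most with CH223191 against DMSO in normal medium (Spearman −0.21 across genes). After this trend was removed, a setting added after seeing the data, B2m, the shortest transcript of the 10, had log2 ratios of 1.28 with DMSO and 0.72 with CH223191.

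The peptide transporter is a dimer of the products of Tap1 and Tap2, and the levels of its genes diverged. Tap1 (ENSMUSG00000037321, chr17:34187553-34197225) had 504, 487, 752 and 700 reads, or 31.6, 30.6, 43.0 and 43.1 CPM. It was higher in both 4T1-CM libraries, 1.36-fold with DMSO (log2 0.44, 0.28 to 0.61) and 1.41-fold with CH223191 (0.49, 0.32 to 0.66). Tap2 (ENSMUSG00000024339, chr17:34203527-34216321) had 565, 590, 594 and 469 reads, or 35.4, 37.1, 33.9 and 28.9 CPM. Only the library of 4T1-CM with CH223191 stood apart, with a log2 ratio to normal medium of −0.36 (−0.54 to −0.18), while that with DMSO was −0.06 (−0.23 to 0.11). The ratio of Tap1 to Tap2 per length was 0.616 (0.545 to 0.696) and 0.570 (0.504 to 0.644) in normal medium and 0.874 (0.784 to 0.975) and 1.03 (0.915 to 1.16) in 4T1-CM.

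Tapbp (ENSMUSG00000024308, chr17:33915899-33929288) encodes tapasin, which bridges the transporter and empty class I molecules. Its reads were 4383, 3163, 7250 and 5980, or 275, 199, 414 and 368 CPM. Both 4T1-CM libraries were above those in normal medium, 1.51-fold with DMSO (log2 0.59, 0.54 to 0.65) and 1.85-fold with CH223191 (0.89, 0.83 to 0.95). In the GENCODE M21 annotation, exons of the antisense gene Gm19412 cover 24.9% of the Tapbp exon bases, and Gm15821 covers 14.1% of those of Tap2. Whether counting used strand was not given in the sources used here, so reads of a gene and its antisense partner cannot be told apart.

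Among 7 partners of peptide loading, none was at least 2-fold higher in either inhibitor condition (12.2% and 12.0% of all genes), and 0 and 1 were at least 2-fold lower (6.11% and 7.86%), with median log2 ratios of −0.29 with DMSO and −0.07 with CH223191 beside 0.01 and 0.02 for all genes. The lowest genes of this list were Hspa5 with DMSO and Calr with CH223191. Calr, the calreticulin gene, had log2 ratios of −0.66 (−0.69 to −0.63) and −1.06 (−1.09 to −1.03). Hspa5, which encodes the chaperone BiP, had −0.86 (−0.90 to −0.82) and −0.89 (−0.93 to −0.85). Tapasin and its partner chaperone calreticulin thus differed in direction.

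Neither immunoproteasome subunit among the 10 had an interval above 0 in 4T1-CM. Psmb8 (ENSMUSG00000024338, chr17:34197721-34201454), which takes the place of Psmb5, had 766, 1008, 727 and 686 reads, or 48.1, 63.4, 41.5 and 42.2 CPM. The 4T1-CM libraries were alike, and normal medium with CH223191 was the highest. Its ratio of 4T1-CM to normal medium was 0.864 with DMSO (log2 −0.21, −0.36 to −0.06) and 0.666 with CH223191 (−0.59, −0.73 to −0.44). Exons of the antisense gene Gm20496 cover 14.7% of its exon bases.

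Psmb9 (ENSMUSG00000096727, chr17:34181988-34187764), which takes the place of Psmb6, had 382, 497, 418 and 407 reads. These were 24, 31.3, 23.9 and 25.1 CPM, with normal medium and CH223191 again the highest library. Its log2 ratio was −0.01 (−0.21 to 0.20) with DMSO and −0.32 (−0.51 to −0.13) with CH223191. Tap1, which shares its promoter region, was higher in both. In the GENCODE M21 annotation, which places the starts differently from RefSeq, 212 bases of the first exons of Tap1 and Psmb9 overlap on opposite strands. That is 5.79% of the exon bases of Psmb9. Psmb10, the other inducible catalytic subunit, had 830, 921, 456 and 422 reads and was lower in both 4T1-CM libraries, with log2 ratios of −0.998 (−1.17 to −0.83) and −1.16 (−1.33 to −0.99).

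The constitutive counterparts were lower in 4T1-CM under both inhibitor conditions, whereas Psmb9 was level with DMSO. Psmb5, Psmb6 and Psmb7 had log2 ratios of −0.30 (−0.43 to −0.17), −0.45 (−0.52 to −0.37) and −0.19 (−0.34 to −0.04) with DMSO. With CH223191 they had −1.09 (−1.22 to −0.96), −0.78 (−0.85 to −0.71) and −0.77 (−0.91 to −0.63). Each of these was larger in size with CH223191, where the library of normal medium stood high. Their gene lengths are 899, 1872 and 3421 bases. Across all genes, the log2 ratio of 4T1-CM to normal medium with CH223191 rose with gene length (Spearman 0.19). Its median was −0.15 in the shortest of 20 length bins. How far the constitutive subunits follow this trend was not tested.

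Within a library the inducible subunit can be set against the one it replaces. The ratios use the deposited gene lengths, and the intervals do not cover error in these. Another length would change the size of a ratio in all libraries alike. Psmb8 per length was 0.247 (0.224 to 0.271), 0.222 (0.205 to 0.241), 0.263 (0.238 to 0.290) and 0.316 (0.284 to 0.351) times Psmb5. Psmb9 was 0.0581 (0.0521 to 0.0646), 0.0607 (0.0552 to 0.0667), 0.0790 (0.0711 to 0.0876) and 0.0836 (0.0751 to 0.0928) times Psmb6. Psmb10 was 2.21 (2.0 to 2.45), 1.68 (1.53 to 1.83), 1.27 (1.12 to 1.43) and 1.28 (1.13 to 1.45) times Psmb7. The Psmb9 ratio was thus higher and the Psmb10 ratio lower in both 4T1-CM libraries than in both in normal medium, with intervals that did not overlap. The Psmb8 ratio stood apart only in 4T1-CM with CH223191, and its interval overlapped that of 4T1-CM with DMSO. The trend on gene length was not removed from any of these ratios.

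**Figure D4:**
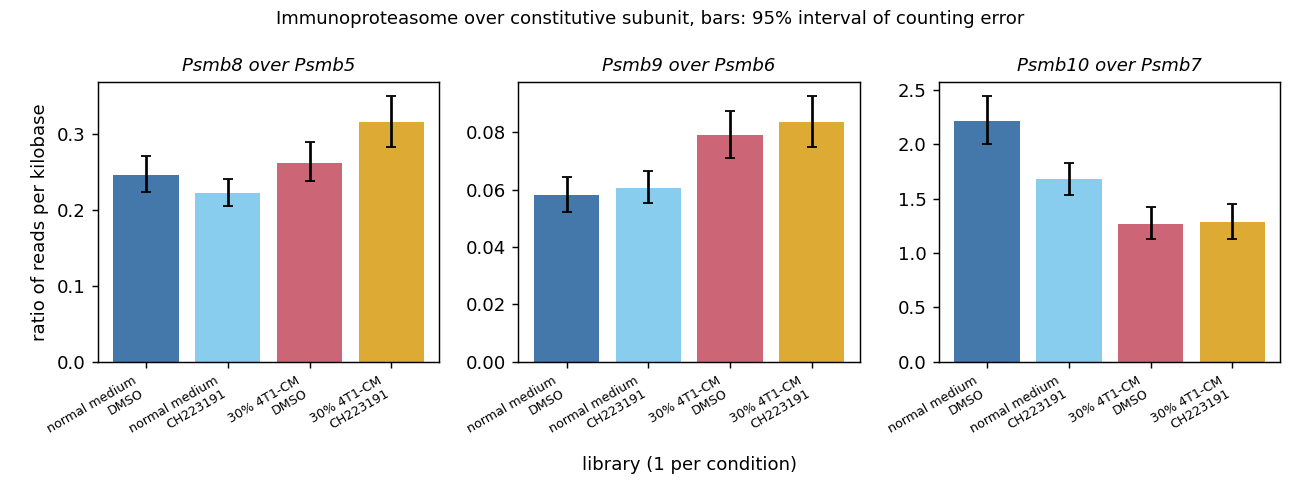
Ratio of reads per kilobase of each inducible catalytic subunit to the constitutive one it replaces, 1 bar per library with the 95% interval of counting error, each panel on its own scale from 0. Psmb9 over Psmb6 is higher in the 4T1-CM libraries (0.0790 and 0.0836) and Psmb10 over Psmb7 lower (1.27 and 1.28).

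Other proteasome genes varied as well. Of 6 further immunoproteasome and activator genes, Psmb10 among them, none reached 2-fold higher in 4T1-CM under either inhibitor condition, and 0 with DMSO and 3 with CH223191 reached 2-fold lower, namely Psmb10, Psme2 and Pomp. Of all genes, 12.2% and 12.0% were that much higher and 6.11% and 7.86% that much lower. Median log2 ratios were −0.14 and −0.78, beside 0.01 and 0.02 for all genes. Psme2, a subunit of the interferon-inducible activator PA28, had 593, 1078, 735 and 502 reads, with log2 ratios of 0.17 (0.02 to 0.33) with DMSO and −1.13 (−1.29 to −0.98) with CH223191. Its high library was again normal medium with CH223191. The 11 other subunits of the proteasome core had medians of −0.04 and −0.34. Of these, 0 were at least 2-fold higher (12.2% and 12.0% of all genes) or lower (6.11% and 7.86%).

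Nlrc5 (ENSMUSG00000074151, chr8:94434356-94527272) encodes the transactivator of class I genes. It had 226, 196, 395 and 330 reads, or 14.2, 12.3, 22.6 and 20.3 CPM, and both 4T1-CM libraries lay above those in normal medium. The ratio was 1.59 with DMSO (log2 0.67, 0.43 to 0.91) and 1.65 with CH223191 (0.72, 0.46 to 0.98). Of 14 transcription factors known to act on class I genes, 1 reached 2-fold higher in 4T1-CM under both inhibitor conditions, where 12.2% and 12.0% of all genes did, and 0 lower, where 6.11% and 7.86% did, with medians of 0.10 and 0.33 beside 0.01 and 0.02. That gene was Irf7, an interferon-inducible factor of the type I interferon response, with 225, 330, 2954 and 2132 reads and log2 ratios of 3.58 (3.38 to 3.78) and 2.66 (2.49 to 2.83). Irf1, a direct activator of class I and immunoproteasome promoters, had log2 ratios of 0.01 (−0.22 to 0.23) and −0.04 (−0.26 to 0.18).

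Over the 10 genes, the median log2 ratio of 4T1-CM to normal medium was 0.24 with DMSO and 0.23 with CH223191, beside 0.01 and 0.02 for all 13715 genes. With DMSO, 1 of the 10, B2m, was at least 2-fold higher, where 12.2% of all genes were, and 0 were at least 2-fold lower, where 6.11% were. With CH223191, 1, H2-K1, was at least 2-fold higher, where 12.0% of all genes were, and 1, H2-T23, at least 2-fold lower, where 7.86% were. These shares are near those of all genes, so the size rule sets the 10 apart from the rest in neither comparison. With DMSO, intervals lay above 0 for 6 genes (H2-K1, H2-D1, B2m, Tap1, Tapbp and Nlrc5) and below 0 for 2 (H2-T23 and Psmb8), where those of 29.7% and 30.3% of all genes did. With CH223191 they lay above 0 for 5 (H2-K1, B2m, Tap1, Tapbp and Nlrc5) and below 0 for 4 (H2-T23, Tap2, Psmb8 and Psmb9), where those of 31.3% and 31.6% of all genes did. Counting intervals of most genes thus held no 0 at these depths, and the counts are no result about the 10.

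**Figure D5:**
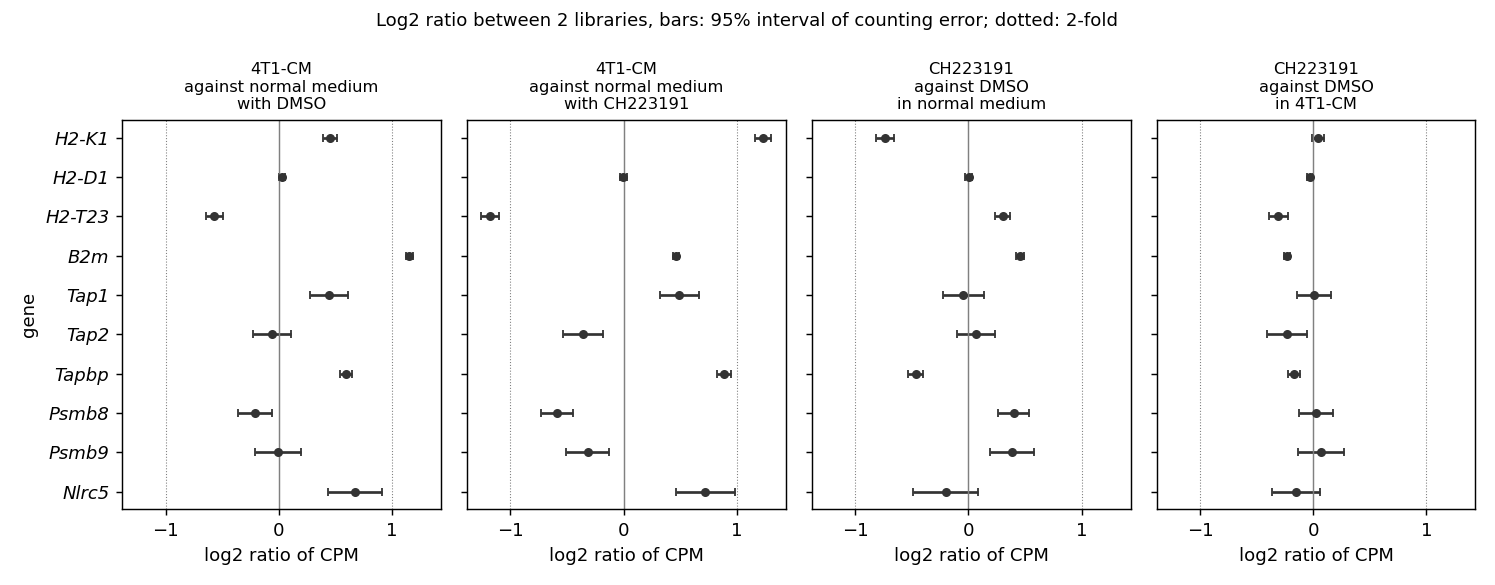
Log2 ratio of CPM between 2 libraries for each of the 10 genes in the 4 comparisons, with bars for the 95% interval of counting error and dotted lines at 2-fold. In 4T1-CM, B2m is at 1.15 with DMSO and H2-K1 at 1.23 and H2-T23 at −1.18 with CH223191, and no gene passes a dotted line when CH223191 is set against DMSO.

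CH223191 alone, in normal medium, was compared with DMSO to give the effect of the inhibitor without 4T1-CM. H2-K1 and Tapbp were lower, with log2 ratios of −0.74 (−0.81 to −0.66) and −0.47 (−0.53 to −0.40). B2m, Psmb8, Psmb9 and H2-T23 were higher, at 0.46 (0.42 to 0.49), 0.40 (0.26 to 0.54), 0.38 (0.19 to 0.58) and 0.30 (0.24 to 0.37). The intervals of H2-D1, Tap1, Tap2 and Nlrc5 held 0. No gene of the 10 was at least 2-fold higher or lower, where 4.84% and 3.31% of all genes were, and the median was 0.03, or −0.02 under total counts and −0.02 in an additive fit, beside 0.00 for all genes. After removal of the trend on gene length the B2m ratio was 0.23.

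In 4T1-CM, CH223191 was likewise set against DMSO. H2-T23, B2m, Tap2 and Tapbp were lower, with log2 ratios of −0.31 (−0.39 to −0.22), −0.23 (−0.26 to −0.21), −0.23 (−0.41 to −0.06) and −0.17 (−0.22 to −0.12), as was H2-D1 at −0.03 (−0.06 to 0.00). H2-K1, at 0.04 (−0.01 to 0.10), and Psmb8, Psmb9, Tap1 and Nlrc5 had intervals that held 0. None of the 10 was at least 2-fold higher or lower, where 2.75% and 2.66% of all genes were, and the median was −0.09.

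Setting the response to 4T1-CM with CH223191 against that with DMSO shows how far the inhibitor went with a different response. The difference of the log2 ratios was positive for H2-K1, at 0.78 (0.68 to 0.87), and Tapbp, at 0.30 (0.21 to 0.38). It was negative for B2m, at −0.69 (−0.73 to −0.65), H2-T23, at −0.61 (−0.72 to −0.50), Psmb8, at −0.38 (−0.58 to −0.17), Psmb9, at −0.31 (−0.59 to −0.04), and Tap2, at −0.30 (−0.54 to −0.06). Tap1 and Nlrc5 each had 0.05, with intervals of −0.18 to 0.28 and −0.30 to 0.40, and H2-D1 had −0.03 (−0.07 to 0.01). The median over the 10 was −0.17 beside −0.01 for all genes. For H2-K1 and the proteasome subunits the difference came with the level in normal medium with CH223191, whereas the 4T1-CM libraries were nearly equal. Every such difference rests on 1 library per condition and was not tested.

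A fit over all 4 libraries gave the only p-values. It used edgeR's quasi-likelihood test with medium and inhibitor as additive terms, which leaves 1 residual degree of freedom. The fit has no term for a medium response that differs between DMSO and CH223191, so such a difference counts as error. The DMSO and CH223191 libraries of a medium thus stand in for replicates, and each gene's error estimate is drawn towards that of all genes. Variation between cultures is not measured. That difference had a counting interval off 0 for H2-K1, B2m, H2-T23, Tapbp, Psmb8, Psmb9 and Tap2. For the medium, 7 of the 10 genes had a Benjamini-Hochberg adjusted p below 0.05, where 32.6% of all genes did. Tapbp (log2 fold 0.74, adjusted p = 0.00188), B2m (0.81, 0.00304), H2-K1 (0.84, 0.00432), Nlrc5 (0.69, 0.0065) and Tap1 (0.47, 0.0177) were higher in the 4T1-CM libraries. H2-T23 (−0.87, adjusted p = 0.00186) and Psmb8 (−0.40, 0.0456) were lower in them. Tap2 (−0.21, 0.266), Psmb9 (−0.16, 0.422) and H2-D1 (0.01, 0.935) did not pass. For the inhibitor, 0 of the 10 passed in edgeR's fit, where 0.0802% of all genes did, 1 of the 10 (Tapbp) had an unadjusted p below 0.05, and the lowest adjusted p was 0.762; no other tool gave a p.

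The 5 genes whose profile over the 4 libraries was nearest to the median profile of the 10, among 8313 genes averaging 10 CPM or more, were Nckap5l, Srrm1, Dopey1, Tubgcp3 and Tmem129, at distances of 0.0370 to 0.0407 on the log2 scale. The 10 themselves lay at 0.196 (H2-D1) to 1.12 (H2-T23) from it. The 5 were picked as the nearest, so this is a description and no comparison with other genes.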

How the data were processed

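The authors deposited 1 table of raw read counts per gene. Per the labels it came from TRIzol-extracted total RNA and NEBNext Ultra libraries, and the submitters' processing notes name HISAT2 2.0.5 and DESeq2. The methods name featureCounts for alveolar macrophages. For these libraries counter, genome build, annotation and strand setting were not given in the sources used here. Of the 10 genes, 7 have coordinates equal to those of GENCODE M21 on GRCm38, and gene coordinates are the table's. Exon overlaps and shared words were taken from GENCODE M21. The filter kept genes that reached 10 reads in any library. Log2 ratios used CPM scaled by TMM (edgeR 4.0.16, R 4.3.3) with a prior count of 0.5. Intervals are exact Clopper-Pearson intervals, from how a gene's reads divide between 2 libraries, and cover counting error only. Steps were tested on simulated counts with counting error only and the same 4T1-CM effect with DMSO and CH223191. Such counts cannot show how the steps handle variation between cultures, the length trend or a response that differs with the inhibitor. All 10 genes, the genes of 8 related lists and the 5 nearest profiles were eligible to be named. Genes and lists were chosen with earlier results of these data known. Alternatives were the DESeq2 1.42.0 size factors, total counts, other filters, a prior count of 5, summed heavy chain reads and the additive edgeR fit. 1 gene of these lists is not reported here.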

Additional observations from a re-analysis of the deposited data

Results flagged for a closer look

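The response to CH223191 had opposite directions in the 2 media for H2-T23 and B2m. For H2-T23, the log2 ratio of CH223191 to DMSO in normal medium was 0.30, and that in 4T1-CM was −0.31. For B2m the ratio in normal medium was 0.46, and that in 4T1-CM was −0.23. With 1 library per condition the difference was not tested, and the intervals beside these ratios cover counting error only. Both directions held when the trend on gene length was removed, with 0.23 and −0.31 for H2-T23 and 0.23 and −0.26 for B2m.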

How the results depend on the processing

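No paired analysis was possible because each condition had 1 library and the labels carry no replicate numbers, and no library could be left out of a comparison. The counts of the 10 genes past 2-fold did not change under the DESeq2 size factors, total counts, both other filters on low counts or the prior count of 5, and their medians kept their direction, except that for CH223191 against DMSO in normal medium, which turned from 0.03 to −0.024 under total counts and to −0.0173 in the additive fit. The median for 4T1-CM against normal medium with CH223191 moved from 0.23 to 0.30 once the trend on gene length was removed, a setting chosen after seeing the data. Summing the reads of all class I heavy chains gave 1 log2 ratio per comparison for the whole sum, most of which H2-D1 supplies. For 4T1-CM against normal medium with CH223191 the sum had 0.0583, where H2-T23 alone had −1.18 and H2-K1 had 1.23. With DMSO the sum had 0.0908 and H2-T23 −0.57. For CH223191 against DMSO in normal medium the sum had −0.0273 and H2-T23 0.30. These values describe the sum, so they cannot show whether the ratios of H2-T23 or H2-K1 depend on processing. Of 40 log2 ratios of single genes, 2 changed sign under the DESeq2 size factors, 4 under total counts, 0 without a filter, 2 when every library had to hold 10 reads, 0 with a prior count of 5 and 3 without the length trend, and these were ratios of H2-D1, Tap1 and Psmb9 near 0. The additive fit, which gives 1 value per gene for both media, changed 7, among them H2-T23 (−0.0007) and B2m (0.11) for CH223191. Counts over all genes depended on the filter. For 4T1-CM against normal medium with DMSO, 1673 genes were higher and 838 lower by the 2-fold rule, against 4635 and 2535 with no filter and 851 and 499 when every library had to hold 10 reads. With CH223191 the counts were 1648 and 1078, against 4367 and 2995 unfiltered and 869 and 677 under the strict filter. For CH223191 against DMSO in normal medium they were 664 and 454, 2815 and 2260, and 226 and 89, and 363 and 207 with a prior count of 5 and 294 and 223 in the additive fit. In 4T1-CM they were 377 and 365, 2555 and 2688, and 83 and 53, and 161 and 160 with a prior count of 5, while the additive fit gave 223 lower genes. Across the scalings the largest shift of the median of all genes was −0.0544. Depth limited Nlrc5, Psmb9, Tap1 and Tap2 most, and nothing here measures variation between cultures.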

Other observations

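Interferon genes and their receptors bear on class I transcription and were read alongside it. Ifng and Ifnb1 had 0 reads in all 4 libraries, which allows up to 0.171 to 0.189 CPM in a library. Of 8 genes of this list with enough reads, 1 was at least 2-fold higher in 4T1-CM with DMSO and 2 with CH223191, where 12.2% and 12.0% of all genes were, with medians of 0.33 and 0.36 beside 0.01 and 0.02 for all genes. Ifnar2, a chain of the type I interferon receptor, had log2 ratios of 1.17 (1.07 to 1.26) and 1.02 (0.94 to 1.11), and Ifnar1, the other chain, 0.97 (0.90 to 1.04) and 0.96 (0.89 to 1.03). Jak2, a kinase of the interferon-gamma receptor among others, had 0.98 (0.85 to 1.12) and 1.24 (1.09 to 1.39). Of the 8 genes, 3 were below 0 with DMSO and 1 with CH223191. The kinase gene Tyk2 was below 0 in both, at −0.21 (−0.33 to −0.09) and −0.51 (−0.63 to −0.40). Socs1, an inhibitor of this signalling, had 24 to 37 reads.

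Class II molecules display peptides to CD4+ T cells. Of 6 genes with enough reads, 1 was at least 2-fold higher in 4T1-CM under each inhibitor condition (12.2% and 12.0% of all genes) and 0 lower (6.11% and 7.86%), with medians of 0.09 and 0.32. That gene, H2-Ab1, had 93, 80, 276 and 193 reads. H2-Aa, its partner chain, had 88, 70, 116 and 76 reads and log2 ratios of 0.26 (−0.15 to 0.68) and 0.09 (−0.40 to 0.58). Of the 6 genes, 3 were above and 3 below 0 with DMSO, and 5 above and 1 below with CH223191. Cd74, the invariant chain, had 510, 342, 532 and 402 reads, or 15.3 to 22.7 RPKM, and Ciita, the class II counterpart of Nlrc5, had 10 to 15 reads per library.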
